A study of Homo sapiens with 6 samples.

Results

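The 10 genes described here are members of the Notch pathway: the receptors NOTCH1, NOTCH2 and NOTCH3, the ligands JAG1, JAG2 and DLL1, and the target genes HES1, HEY1, HEY2 and NRARP. They were picked by symbol, and all 10 were found among the 20802 genes of the panel. The measurements came from MCF10A, a benign mammary epithelial cell line, in 6 libraries of targeted sequencing in which each gene is read through 1 amplicon of its transcript. Untransfected wild-type cells (WT), cells stably carrying an eGFP control plasmid, and cells stably carrying the coding sequence of GIRK1 in that same eGFP plasmid gave 2 libraries each. GIRK1 is the potassium channel subunit encoded by KCNJ3. Both transfected lines therefore share the eGFP cassette and went through antibiotic selection and sorting on eGFP, whereas WT cells did not. The deposited design speaks of separate lines and the methods of replicates. The sources do not say whether the replicates were separate cultures, so p-values measure only the spread between these libraries, which may be technical.

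Notch receptors are cut after they bind a ligand on a neighbouring cell. The freed intracellular domain then enters the nucleus and joins the DNA-binding protein RBPJ to switch on genes such as those of the HES and HEY families, which encode transcriptional repressors, and NRARP, which feeds back on the complex. In the mammary epithelium the pathway is known for its part in the choice between basal and luminal fates.

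RBPJ is known to bind a short motif, and the promoters of 3 target genes are shown because they are the direct readouts of the pathway and because they differ in that motif. Each run covers 250 bases before the transcription start to 10 bases after it, from RefSeq on GRCh38.p14, written 5′ to 3′ on the strand of the gene, with matches to GTGGGAA or TGGGAA, or to their reverse complements TTCCCAC and TTCCCA, in capitals. The shorter motif lies inside the longer one, so their matches overlap. HES1 is at chr3:194135898-194136157 on the plus strand, HEY2 at chr6:125749382-125749641 on the plus strand and NRARP at chr9:137302262-137302521 on the minus strand.
HES1: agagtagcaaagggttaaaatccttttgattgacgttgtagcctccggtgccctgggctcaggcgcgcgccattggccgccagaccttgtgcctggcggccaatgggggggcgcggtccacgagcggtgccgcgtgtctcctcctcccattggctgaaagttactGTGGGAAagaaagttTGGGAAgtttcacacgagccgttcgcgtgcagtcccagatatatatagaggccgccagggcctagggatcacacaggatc
HEY2: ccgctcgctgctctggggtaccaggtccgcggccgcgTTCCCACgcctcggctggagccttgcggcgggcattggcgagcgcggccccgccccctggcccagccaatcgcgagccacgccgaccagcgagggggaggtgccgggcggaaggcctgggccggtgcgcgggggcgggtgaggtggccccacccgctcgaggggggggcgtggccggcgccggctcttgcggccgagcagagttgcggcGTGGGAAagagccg
NRARP: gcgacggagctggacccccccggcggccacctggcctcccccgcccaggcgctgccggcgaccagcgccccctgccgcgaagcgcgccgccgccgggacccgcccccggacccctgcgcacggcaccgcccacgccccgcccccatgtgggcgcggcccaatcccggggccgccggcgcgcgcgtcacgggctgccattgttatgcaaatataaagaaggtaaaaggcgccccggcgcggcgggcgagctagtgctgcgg
GTGGGAA began 85 bases before the HES1 start, with a further TGGGAA 70 bases before it. HEY2 held GTGGGAA from 4 bases before the RefSeq start used here, running across it, and the reverse complement 213 bases before it. That HEY2 window lies inside the GENCODE span of the gene (125747664 to 125761269), so these distances hold for the RefSeq start only. The NRARP window held no match. Of the 8 members with an entry in the promoter table, 2 held GTGGGAA, against 5.62% of the 35116 promoters in the table. The same 2 held TGGGAA, against 21.6% of all promoters. A match is a description of these letters and not of binding.

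Depth ranged from 5126930 to 16040556 reads in 5 libraries and was 2506120 reads in the library labelled WT replicate 1. A level of 3 reads, used as the floor for a gene at 0, was 0.187 to 0.585 RPM (reads scaled to the size of each library) in the 5 libraries and 1.20 RPM in the library labelled WT replicate 1. KCNJ3 itself had 2408 and 3677 reads in the GIRK1 libraries and 0 reads in both eGFP libraries and in WT replicate 2. Among these 5 libraries the introduced gene was thus read only where the label says GIRK1. Its GIRK1 mean of 286 RPM was at least 489-fold higher than the highest control floor. The library labelled WT replicate 1 held 48 KCNJ3 reads and went against its label in other ways. Basal mammary markers (KRT5, KRT14, KRT17 and 5 others) summed to 396 RPM there, with KRT14, KRT17 and TP63 at 0 reads, against 8318 to 15315 RPM in the other 5 libraries, where 7 of 8 had reads and TP63 had 0. Luminal markers summed to 18911 RPM in it, with reads for 10 of 10, against 531 to 1029 RPM in the others, where ESR1, PGR, TFF1 and KRT19 had 0 reads. Between 39.7% and 40.6% of 9288 well-read genes differed at least 2-fold between the library labelled WT replicate 1 and any other library. Among pairs of the other 5 libraries the share ran from 1.48% (WT and eGFP replicates 2) to 20.0% (eGFP replicate 1, GIRK1 replicate 2). It was 1.93% between the GIRK1 libraries. Fibroblast markers summed to 3.43 to 17.2 RPM, leukocyte markers to 0 to 21.7 RPM and endothelial markers to 0.090 to 0.399 RPM over the 6 libraries. The library labelled WT replicate 1 is therefore shown apart, and the tests use the other 5 libraries. eGFP replicate 1 also stood away from its partner, with 11.5% of those genes at least 2-fold apart. The names of the GIRK1 libraries carry a tag that differs from the tag of the other 4, and the sources do not say what it marks. Whatever it marks and the condition cannot be told apart.

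In short, no member passed the adjusted threshold of 0.05 between GIRK1 and eGFP cells. NRARP was at 13.3 and 11.5 RPM in the GIRK1 libraries and at 5.47 to 8.29 RPM in the 3 controls. Members called numbered 0 of 9 tested, against 1.55% of the 11389 genes tested (quasi-likelihood test of edgeR, adjusted by Benjamini-Hochberg). At an unadjusted p below 0.05 there were 2 members, NOTCH3 and NRARP, against 19.1% of all genes, and DESeq2 called 0 after adjustment and 2 before it. HEY2 was not tested, with a mean of 0.4 reads over the 5 libraries. Members with both GIRK1 libraries above all 3 controls numbered 4, namely NOTCH1, NOTCH3, JAG2 and NRARP, where 21.6% of all genes tested did so. Members below all 3 controls numbered 0, against 19.5% of all genes. NOTCH3 passed the filter on low counts only through the GIRK1 libraries and had to differ to be tested, so its place in these counts and in the median supports nothing. The median log2 fold change was 0.46 over the tested members and 0.01 over all genes. In bulk libraries, fewer cells of a kind and less RNA per cell cannot be told apart.

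**Figure D1:**
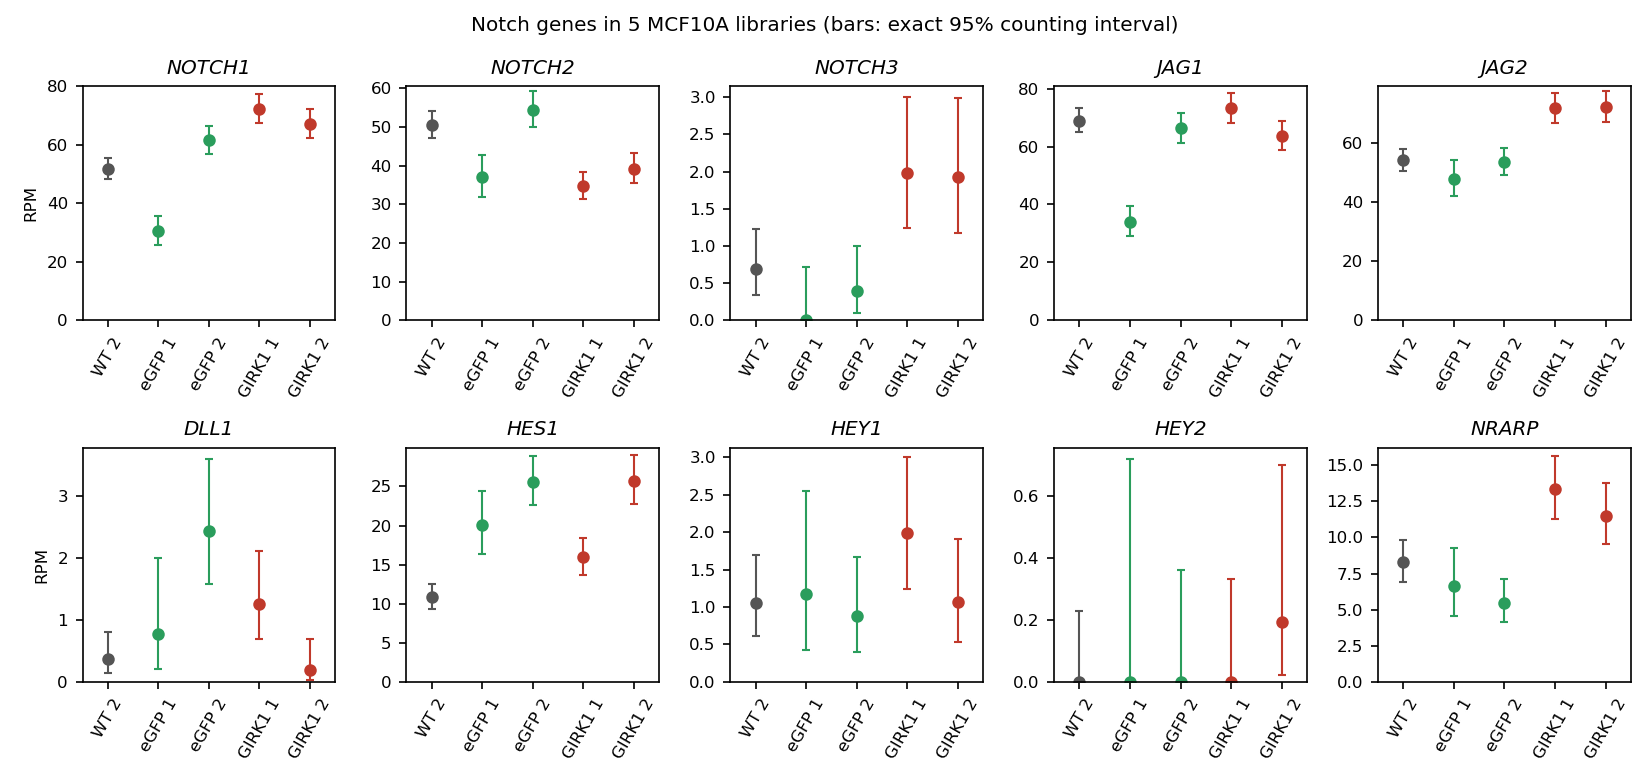
Level of each member, in RPM (vertical axes, a separate scale for each gene), in the 5 libraries without WT replicate 1. Points are single libraries and bars are exact 95% binomial intervals, which cover counting error only. NRARP lies at 13.3 and 11.5 RPM in the GIRK1 libraries, above the 5.47 to 8.29 RPM of the controls, while HES1 overlaps between groups.

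NOTCH1, a receptor transcribed from chromosome 9 (136494433 to 136545786, minus strand, GENCODE v29 on GRCh38), was at 30.4 and 61.5 RPM in the eGFP libraries, 51.7 RPM in WT replicate 2 and 72.3 and 67.2 RPM in the GIRK1 libraries. Both GIRK1 values were above all 3 controls, but eGFP replicate 1 was far lower than its partner. The log2 fold change of GIRK1 over eGFP was 0.57 (SE 0.31, 95% interval -0.17 to 1.31, adjusted p = 0.363 by edgeR's quasi-likelihood test).

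NOTCH2, on chromosome 1 (119911553 to 120069626, minus strand), was at 37.1 and 54.5 RPM in eGFP cells, 50.5 RPM in WT replicate 2 and 34.8 and 39.2 RPM in GIRK1 cells. The GIRK1 values were at the low end, and the groups overlapped through eGFP replicate 1. This was a log2 fold change of -0.34 (SE 0.24, 95% interval -0.92 to 0.23, adjusted p = 0.470 by the same edgeR test).

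NOTCH3, on chromosome 19 (15159038 to 15200981, minus strand), had 0 and 4 reads in the eGFP libraries, 11 reads in WT replicate 2 and 22 and 20 reads in the GIRK1 libraries. These were 0 and 0.391 RPM, 0.686 RPM, and 1.98 and 1.93 RPM, so the GIRK1 libraries were higher without overlap, at few reads. The filter asked for at least 0.967 RPM in 2 libraries, which 0 controls and both GIRK1 libraries reached. Its log2 fold change was 2.90 (SE 0.85, 95% interval 0.87 to 4.93, unadjusted p = 0.0121, adjusted p = 0.149 by edgeR), a value set partly by the eGFP library at 0 reads.

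Among the ligands, JAG1 is a transmembrane activator of Notch receptors, on chromosome 20 (10637684 to 10673999, minus strand). An antisense gene, AL050403.2, overlaps its exons, and of 883 stretches of 25 bases around its amplicon 2 also occur in JAG2, while no other member shared any with its family. JAG1 was at 33.9 and 66.2 RPM in eGFP cells, 69.0 RPM in WT replicate 2 and 73.2 and 63.6 RPM in GIRK1 cells. The GIRK1 values lay on either side of eGFP replicate 2 and WT replicate 2, and eGFP replicate 1 alone was low. GIRK1 over eGFP gave a log2 fold change of 0.41 (SE 0.30, 95% interval -0.31 to 1.14, adjusted p = 0.486 by edgeR).

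JAG2, a second ligand of the Jagged type on chromosome 14 (105140981 to 105168824, minus strand), was at 47.8 and 53.6 RPM in eGFP cells, 54.1 RPM in WT replicate 2 and 71.7 and 72.0 RPM in GIRK1 cells. Replicates lay close together in the eGFP and the GIRK1 group, and the GIRK1 libraries were higher without overlap. The log2 fold change was 0.46 (SE 0.20, 95% interval -0.01 to 0.93, unadjusted p = 0.0532, adjusted p = 0.269 by edgeR).

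DLL1, a Delta-type ligand on chromosome 6 (170282206 to 170306565, minus strand), had 4 and 25 reads in eGFP cells, 6 reads in WT replicate 2 and 14 and 2 reads in GIRK1 cells. These few reads did not separate the groups, and replicates differed more than groups did. The fitted log2 fold change was -1.24 (SE 0.89, 95% interval -3.37 to 0.90, adjusted p = 0.482 by edgeR), so a difference was not detectable at this depth. It was -3.05 without GIRK1 replicate 1 and -0.45 without GIRK1 replicate 2.

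Of the target genes, HES1 on chromosome 3 (194136145 to 194138732, plus strand), whose promoter with 2 motif matches is printed above, was at 20.1 and 25.6 RPM in eGFP cells, 10.8 RPM in WT replicate 2 and 15.9 and 25.7 RPM in GIRK1 cells. The groups overlapped, and WT replicate 2 was lowest. The log2 fold change over eGFP was -0.17 (SE 0.31, 95% interval -0.91 to 0.57, adjusted p = 0.789 by edgeR).

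HEY1, a related repressor on chromosome 8, had 6 and 9 reads in eGFP cells, 17 reads in WT replicate 2 and 22 and 11 reads in GIRK1 cells. In RPM these were 1.17, 0.879, 1.06, 1.98 and 1.06 in that order, which overlap. In the fit HEY1 had a log2 fold change of 0.57 (SE 0.62, 95% interval -0.91 to 2.05, adjusted p = 0.648 by edgeR).

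HEY2, on chromosome 6 (125747664 to 125761269, plus strand), had 2 reads in GIRK1 replicate 2 and 0 reads in the other 4 of these libraries. It was at or under the floor in every one of them, so no fold is given.

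NRARP, the feedback regulator on chromosome 9 (137300482 to 137302251, minus strand), had 34 and 56 reads in eGFP cells, 133 in WT replicate 2 and 148 and 119 in GIRK1 cells. In RPM, the eGFP libraries were at 6.63 and 5.47, WT replicate 2 at 8.29 and the GIRK1 libraries at 13.3 and 11.5. Both GIRK1 libraries were above all 3 controls. The GIRK1 mean was 12.4 ± 1.29 RPM (SD, n = 2) against 6.05 ± 0.820 RPM (SD, n = 2) in eGFP cells. Its log2 fold change was 1.0 (SE 0.32, 95% interval 0.25 to 1.76, unadjusted p = 0.0165, adjusted p = 0.167 by edgeR), a fold of 2.01. NRARP was also the 1 member that met a rule with no test, a change of at least 2-fold between the RPM means with a coefficient of variation under 0.7 in each group, which 4.21% of 14893 genes met in the higher direction. NRARP no longer met it with WT replicate 2 added to the controls or on TMM-scaled CPM.

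**Figure D2:**
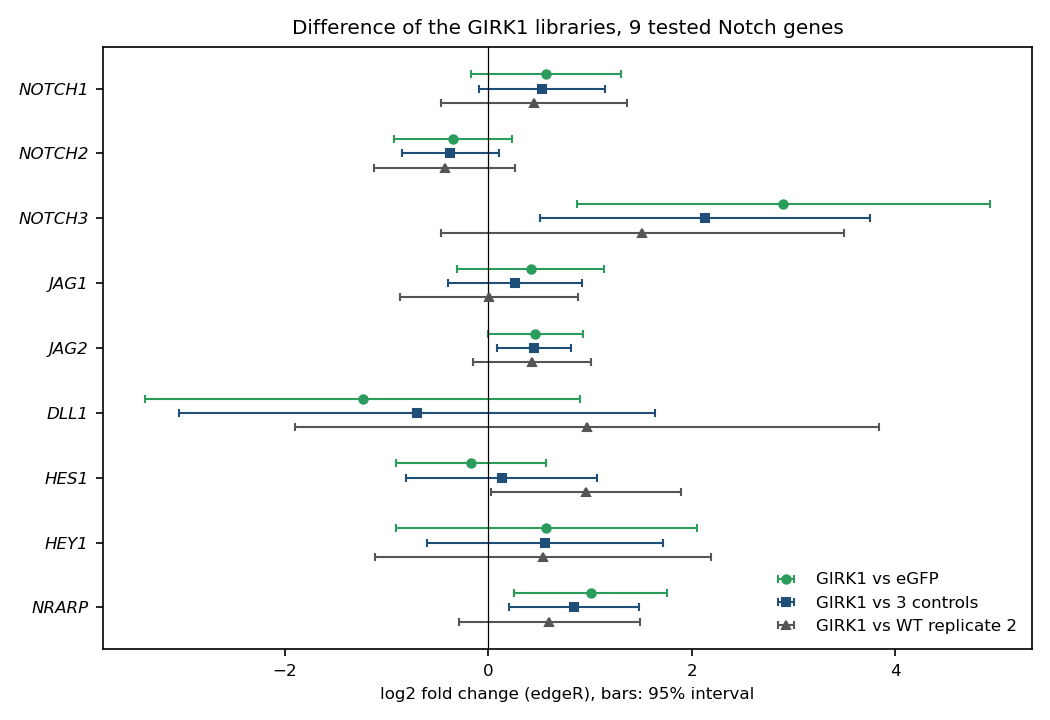
Log2 fold change of GIRK1 cells (horizontal axis, points with 95% intervals from edgeR) for the 9 tested members, against eGFP, against all 3 controls and against WT replicate 2. Against eGFP, the interval of NRARP (0.25 to 1.76) lies above 0, and so does that of NOTCH3 (0.87 to 4.93), which had to differ to be tested. Against WT replicate 2, a single library, both intervals include 0.

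Set against the 3 controls together, members called numbered 0 of 9, against 1.21% of all genes, by edgeR with adjustment. Before adjustment there were 3, JAG2, NOTCH3 and NRARP, against 18.7% of all genes, and DESeq2 called 0 after adjustment and 3 before it. NOTCH3 had to differ to be tested, so its place in these counts supports nothing. JAG2 had a log2 fold change of 0.45 (95% interval 0.09 to 0.81, adjusted p = 0.197 by edgeR) and NRARP one of 0.84 (0.21 to 1.48, adjusted p = 0.175 by edgeR). Against WT replicate 2 alone, again 0 members were called (0.237% of all genes), and 1, HES1, had an unadjusted p below 0.05 (7.49% of all genes), with 0 and 1 by DESeq2. HES1 was higher than in that library by 0.96 on the log2 scale (95% interval 0.02 to 1.90, adjusted p = 0.664 by edgeR), whereas against eGFP its change was -0.17. NRARP was higher than in WT replicate 2 by 0.60 on the log2 scale, with an interval that included 0. WT had 1 library in that fit and was assumed to vary like the other groups. These comparisons share the GIRK1 libraries and some controls, so they are not independent of each other.

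The choice of eGFP library bore on NOTCH1 and JAG1. Without eGFP replicate 2, leaving the lower replicate 1 as the eGFP value, the log2 fold change was 1.09 for NOTCH1 (adjusted p = 0.00553 by edgeR) and 0.91 for JAG1 (adjusted p = 0.0134 by edgeR), and NOTCH3, with 0 reads in that library, also passed (adjusted p = 0.0223 by edgeR). In that fit 3 of 8 members tested were called, against 25.1% of the 11291 genes tested. Without eGFP replicate 1, 0 members passed, and the log2 fold change was 0.20 for NOTCH1 (adjusted p = 0.578 by edgeR) and 0.060 for JAG1 (adjusted p = 0.884 by edgeR). In these fits the lone eGFP library was assumed to vary like the other groups. NOTCH3 passed the filter on low counts only through the GIRK1 libraries, so its call without eGFP replicate 2 supports nothing.

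NOTCH1, JAG1 and HES1, the members looked at in this way, did not share 1 pattern over the 5 libraries. Members averaging under 50 reads were not compared. By the mean absolute difference of log2 levels centred on each gene, over 9287 genes averaging 50 reads or more, NOTCH1 was nearest to ZFP161 (0.0441), ATAD1 (0.0490) and BRD3 (0.0496), where the median over all genes was 0.385. JAG1 was nearest to ZMIZ1 (0.0250), STYXL1 (0.0275) and CIRBP (0.0299), with a median of 0.345. HES1 was nearest to THSD4 (0.150), TIRAP (0.163) and RAB4B (0.189), with a median of 0.481. Between members, JAG1 was the 177th nearest gene to NOTCH1 and the 7708th nearest to HES1. The points share 5 libraries and their depths, and these values are descriptions.

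The other genes of the pathway were measured as a list of 59, of which all were found and 50 tested. Only 1 was called between GIRK1 and eGFP cells by edgeR with adjustment, where 1.55% of all genes were, and it was lower. This was DLL3, a ligand known to restrain Notch signalling from within the cell, on chromosome 19 (39498895 to 39508481, plus strand). DLL3 had 97 and 206 reads in eGFP cells, 279 in WT replicate 2 and 27 and 36 in GIRK1 cells. In RPM it was at 18.9 and 20.1, at 17.4, and at 2.43 and 3.48, so the GIRK1 libraries were far below the controls with no overlap. It fell by 2.76 on the log2 scale (SE 0.32, 95% interval -3.52 to -2.01, adjusted p = 0.0148 by edgeR), to 0.147 of the eGFP level. DESeq2 gave an adjusted p of 7.0e-08 against eGFP and 4.3e-13 against the 3 controls. Against the 3 controls DLL3 fell by 2.69 (adjusted p = 0.00782 by edgeR). That call was lost without eGFP replicate 2 (adjusted p = 0.0753), GIRK1 replicate 1 (0.102) or GIRK1 replicate 2 (0.0907), at fold changes of -2.65, -2.43 and -2.98 in edgeR. Against WT replicate 2 alone, a group of 1 library, the log2 fold change of DLL3 was -2.54. There it was not called in the main edgeR fit, but it was by DESeq2 and with the replicate block.

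DNER, a Notch ligand known from neurons, was at 178 and 125 RPM in eGFP cells, 100 RPM in WT replicate 2 and 71.2 and 46.4 RPM in GIRK1 cells. The GIRK1 libraries were below all 3 controls. Its log2 fold change was -1.42 (SE 0.31, adjusted p = 0.0876 by edgeR), and DESeq2 gave an adjusted p of 0.00133. The replicate block also called it (adjusted p = 0.0135 by edgeR). Without GIRK1 replicate 2 its log2 fold change was -1.16 (adjusted p = 0.365 by edgeR). DNER was not called against the 3 controls (-1.23, adjusted p = 0.129 by edgeR) or against WT replicate 2 (-0.75, adjusted p = 0.719 by edgeR).

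Of the 50 tested, 5 were higher and 3 lower at an unadjusted p below 0.05, 8 in all, where 19.1% of all genes had such a p. That share is near the background, so the count is no result about the list. Their names were picked after their values were seen. The higher genes were MIB2, a ubiquitin ligase for ligands, the coactivators CREBBP and EP300, the corepressor TLE4, and HES4, and the lower ones were DLL3, DNER and DTX2. CREBBP averaged 60.9 RPM in GIRK1 and 30.1 RPM in eGFP cells, but WT replicate 2 was at 53.8 RPM. EP300 averaged 8.15 RPM in GIRK1 and 3.86 RPM in eGFP cells, with WT replicate 2 at 7.05 RPM. Against the 3 controls neither was called (adjusted p = 0.386 and 0.403 by edgeR). TLE4 was at 13.1 and 21.1 RPM in eGFP cells, 15.8 RPM in WT replicate 2 and 37.6 and 35.3 RPM in GIRK1 cells, with a log2 fold change of 1.05 (adjusted p = 0.121 by edgeR). HES4 was at 11.9, 14.1 and 13.0 RPM in the controls in the same order and 19.3 and 32.3 RPM in GIRK1 cells, with a log2 fold change of 0.95 (adjusted p = 0.191 by edgeR). The largest changes that kept both GIRK1 libraries above the controls were in HES2 (log2 fold change 1.51, adjusted p = 0.403 by edgeR), DTX3 (1.39, 0.445) and LFNG (1.16, 0.472), each with few reads, HES2 and DTX3 having 0 reads in eGFP replicate 1. HES2 and LFNG reached the low-count filter in 1 control each and needed the GIRK1 libraries to pass it. These values rested on single eGFP libraries: without eGFP replicate 1 they were 0.84 for HES2, 0.61 for DTX3 and 2.83 for LFNG. Without eGFP replicate 2, LFNG was at 0.16, while HES2 (adjusted p = 0.0329 by edgeR) and DTX3 (adjusted p = 0.00502 by edgeR) were called against a lone eGFP library at 0 reads, so no fold is given. Besides DLL3 and DNER, the largest below the controls was APH1B, a subunit of the gamma-secretase complex that cuts the receptors (-0.92, adjusted p = 0.346 by edgeR, and -1.36 to -0.51 on leaving out a library). The list's median log2 fold change was 0.16, with 17 of 50 genes above and 10 below all 3 controls, where 21.6% and 19.5% of all genes were. By role, the 9 genes of the nuclear complex had a median of 0.40 and the 8 tested genes of receptor processing one of -0.03. The median was -1.42 for the other receptor and ligands (3 tested), 0.31 for other HES and HEY genes and 0.29 for receptor glycosylation. It was 0.10 for ubiquitination and trafficking and 0.09 for corepressors. NOTCH4, HEYL and DTX1 had 0 reads in all 6 libraries.

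**Figure D3:**
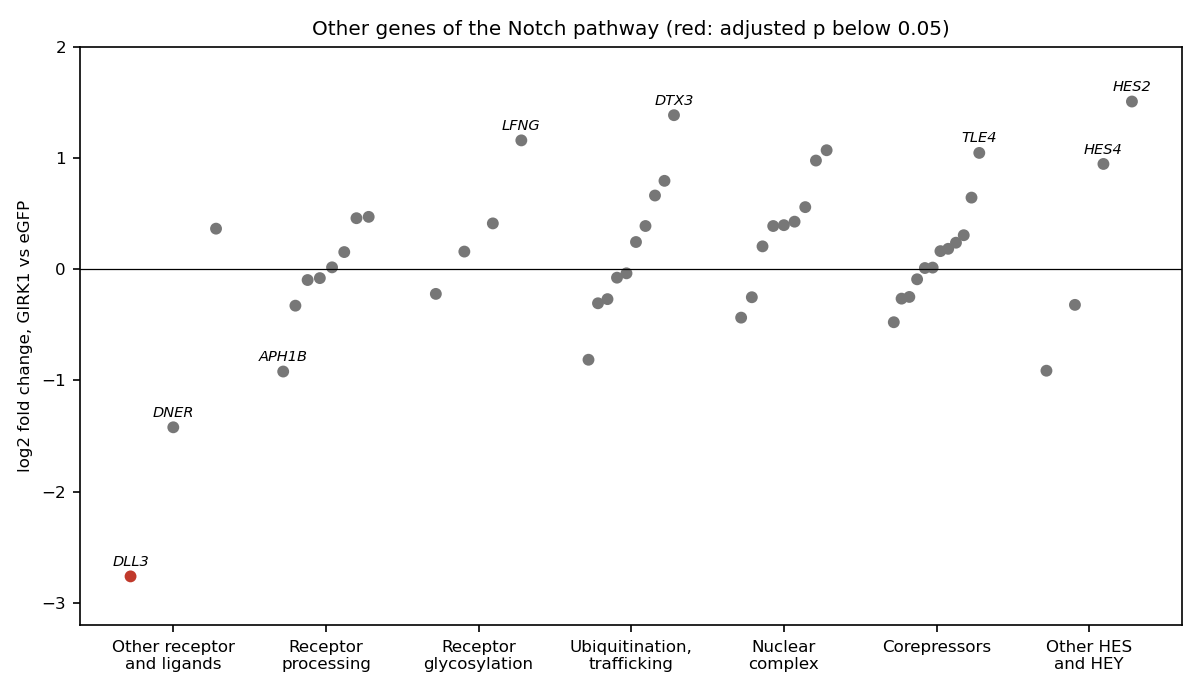
Log2 fold change of GIRK1 over eGFP cells (vertical axis) for the 50 tested genes of the pathway list, grouped by role (horizontal axis). The gene in red, DLL3 at -2.76, is the 1 with an adjusted p below 0.05 by edgeR.

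In the library labelled WT replicate 1, shown apart and left out of the main tests, several members were at levels seen in no other library. NOTCH3 had 175 reads (69.8 RPM), which was 35.2-fold above the highest of the other 5. HEY2 had 253 reads (101 RPM), at least 173-fold above the highest floor of the others. NRARP had 421 reads (168 RPM, 12.6-fold above the highest of the others) and DLL1 had 38 reads (15.2 RPM, 6.21-fold above). Members at least 2-fold above all other libraries numbered 4 of 10, against 13.2% of 11245 genes. Genes counted here averaged 10 reads or more over all 6 libraries, so this library's own reads helped them pass. Over the other 5 libraries NOTCH3, DLL1 and HEY2 averaged 11.4, 10.2 and 0.4 reads, so HEY2 passed only through this library. The count of members above therefore supports nothing about them. Members at least 2-fold below numbered 0, against 12.0% of genes. NOTCH3, DLL1, HEY1 and HEY2 could not be called below, because this library's floor was 1.20 RPM. Their lowest levels in the other 5 libraries were 0, 0.193, 0.879 and 0 RPM, so the count says nothing about them. NOTCH1 at 18.0 RPM and JAG2 at 35.1 RPM were under the lowest other library (30.4 and 47.8 RPM), though by less than 2-fold. NOTCH2 at 40.7 RPM, JAG1 at 35.5 RPM and HES1 at 21.1 RPM lay within the range of the others, and HEY1 had 0 reads. These levels came with the luminal marker sum of 18911 RPM given above, and the part of the marker shift in them was not tested.

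**Figure D4:**
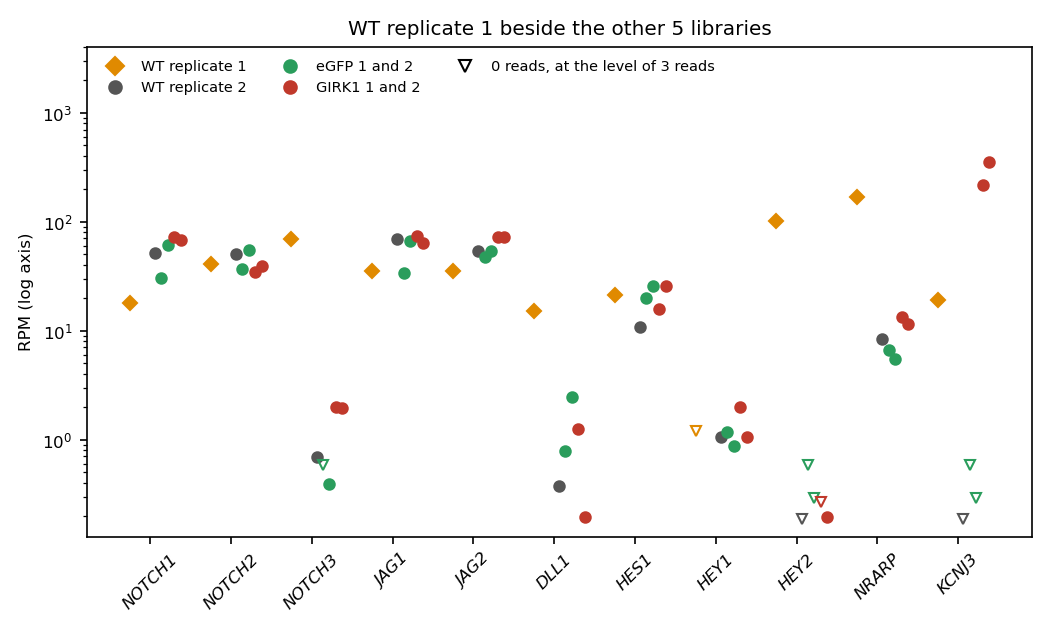
RPM on a log axis of the 10 members and KCNJ3 in the library labelled WT replicate 1 and in the other 5 libraries. Open triangles mark libraries with 0 reads, drawn at the level of 3 reads. The library labelled WT replicate 1 stands above the others in NOTCH3 (69.8 RPM), DLL1, HEY2 and NRARP.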

How the data were processed

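RNA of the 6 MCF10A libraries was read with the Ion AmpliSeq transcriptome panel, 1 amplicon per gene, and the authors mapped reads to the panel's own reference with the Ion Torrent software, whose versions and filters are not given in the sources used here. The deposited files hold read counts per amplicon (not normalized) and RPM values, which the authors scaled to each library's reads. The panel table has 20812 amplicons, 10 of them spike-in controls with 0 reads in all 6 libraries. Groups came from the sample titles.

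Counts of the 5 libraries without WT replicate 1 were fitted with edgeR 4.0.16 in R 4.3.3: TMM scaling, filterByExpr with a factor for GIRK1 against control, the quasi-likelihood test and Benjamini-Hochberg adjustment over 11389 genes. The common biological coefficient of variation was 0.240. DESeq2 1.42.0 was an alternative. The fit was tested on simulated data. Intervals on RPM are exact binomial and, like floors of 3 reads, take in no error but that of counting, as amplified reads are not separate molecules. Amplicon surroundings of paralogs were compared by shared 25-mers. The members and the lists were chosen with earlier results of these data known.

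Named genes were the members, KCNJ3, pathway genes with an adjusted p below 0.05, the 3 largest changes each way among pathway genes averaging 10 reads or more whose GIRK1 libraries both lay on 1 side of all 3 controls, and the 3 nearest genes of NOTCH1, JAG1 and HES1 (pseudocount 0.1). Other pathway genes in the text were named after their values were seen. The alternatives were other scalings, filters and tests, a replicate block, all 6 libraries and leaving out each library.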

Additional observations from a re-analysis of the deposited data

Results flagged for a closer look

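The library labelled WT replicate 1, which was left out of the main comparisons, held reads above the upper counting limits of the 3 controls in 4 members and in KCNJ3. NOTCH3 was at 69.8 RPM where the highest upper limit among the controls was 1.23 RPM, and NRARP was at 168 RPM against 9.83 RPM. HEY2 stood at 101 RPM against 0.720 RPM. DLL1 was at 15.2 RPM against 3.61 RPM. KCNJ3 was at 19.2 RPM against 0.720 RPM, in a library labelled as untransfected. The limits are exact 95% binomial bounds and cover counting error only.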

How the results depend on the processing

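Members called between GIRK1 and eGFP numbered 0 under every alternative except leaving out libraries (0 to 3), and 0 in the other comparisons. That upper count takes in NOTCH3, which had to differ to be tested. Calls over all genes moved more. Against eGFP 1.55% of genes were called, but 5.69% without a filter, 1.07% with at least 10 reads in every library, 5.92% by DESeq2 and 0% (606 genes at an unadjusted p below 0.05 in edgeR) with all 6 libraries, with 1.35% to 25.1% on leaving out a library. Against the 3 controls it was 1.21%, but 2.46% without a filter, 7.01% by DESeq2, 0.0606% with all 6 libraries and 0.163% to 8.73% on leaving out a library. Against WT replicate 2 it was 0.237%, but 0.875% without a filter, 0.16% with at least 10 reads in every library, 1.12% by DESeq2, 0% (648 genes unadjusted in edgeR) with all 6 libraries and 0.291% to 3.29% on leaving out a library. The pathway list gave 1 call, but 3 without a filter, 2 by DESeq2, 0 (1 unadjusted in edgeR) with all 6 libraries and 1 to 11 on leaving out a library. Against eGFP the highest values, 25.1% and 11, came without eGFP replicate 2. Against the 3 controls 8.73% came without eGFP replicate 1, and against WT replicate 2 3.29% came without eGFP replicate 2. The fold rule named 1 member, but 2 on raw reads, 3 without a limit on variation, and 0 with WT replicate 2 added to the controls or on TMM-scaled CPM.

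The replicate block called 4.51%, 4.9% and 0.641% of genes in the 3 comparisons, 2 genes in the pathway list and 0 members. Replicate numbers were shared by only 2 pairs, with a correlation of 0.194, and do not pair the samples by any label.

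Directions turned for some members, none of them called. With all 6 libraries, the log2 change was -2.97 for NOTCH3 and -1.78 for NRARP against the pooled controls, and -4.00, -3.16 and -2.68 for NOTCH3, DLL1 and NRARP against WT. JAG1 against WT replicate 2 was -0.011 on total reads and -0.0055 without a filter, and -0.078 to 0.090 on leaving out a library. Leaving out a library gave HES1 -0.57 to 0.15 against eGFP and -0.27 to 0.45 against 3 controls, and DLL1 -2.55 to 0.049 against 3 controls and -0.87 to 1.72 against WT replicate 2. The fits with all 6 libraries added the library labelled WT replicate 1, with NOTCH3 at 69.8, NRARP at 168 and DLL1 at 15.2 RPM. The cause of these turns was not tested. Comparisons with WT replicate 2 have no value without it.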

Other observations

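Other pathway genes also differed in the library labelled WT replicate 1, without a test. LFNG, a glycosyltransferase that modifies Notch receptors, was at 156 RPM there and at 0.391 to 3.19 RPM in the other 5 libraries, 48.9-fold above the highest. DTX3 was at 34.3 RPM and APH1B at 23.5 RPM, against highest values of 5.31 and 6.63 RPM elsewhere. DLL3 had 0 reads, DNER had 4 reads (1.60 RPM) and DLK2, a Delta-like protein, had 3 reads (1.20 RPM) in that library, where DLK2 reached 25.9 to 44.4 RPM in the others.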
